A study of Mus musculus with 2 samples.

Results

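Matrix metalloproteinases and their tissue inhibitors were followed in single cells of mouse MC38 tumors injected with a control solution or with MSA-2. The 10 genes (Mmp2, Mmp3, Mmp8, Mmp9, Mmp10, Mmp12, Mmp13, Mmp14, Timp1 and Timp2) were picked by symbol, and all 10 of them were found among the 32285 genes of the files. The comparison asked which of the tumor, fibroblast, macrophage and neutrophil classes held each gene, and how its level differed between the library labelled MSA-2 treatment and the library labelled untreated.

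MC38 is a mouse colon carcinoma line, and MSA-2 is a small-molecule agonist of STING, the innate immune sensor that acts downstream of cytosolic DNA. By the study's methods the cells were grown under the skin of C57BL/6 mice aged 6 to 8 weeks. Both groups received 3 injections into the tumor at intervals of 3 days: the group labelled untreated received saline, with 10% DMSO by the series' design text (the methods name saline alone), and the other received MSA-2 at a dose not given in the sources used here. Tumors of 3 mice were dissociated and pooled into 1 library per condition, so no comparison below has a replicate check and none carries a p-value.

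Matrix metalloproteinases are zinc endopeptidases that are made as inactive proenzymes and that cut collagens, elastin, fibronectin, proteoglycans, growth factors and one another. They are grouped by substrate into collagenases (Mmp8, Mmp13), gelatinases (Mmp2, Mmp9), stromelysins (Mmp3, Mmp10), the macrophage elastase (Mmp12) and membrane-type enzymes (Mmp14). The TIMP proteins bind the active site of the mature enzymes and block it. Timp2 has a further role, since at the cell surface it bridges Mmp14 and pro-Mmp2 in the complex that activates Mmp2. In tumors these genes are typically divided among malignant cells, fibroblasts and infiltrating myeloid cells, and several are induced through AP-1 by interleukin-1, Tnf and related cytokines.

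Of the members, 5 lie on mouse chromosome 9 within 296.0 kb, at chr9:7272514-7568485 of GRCm38 (GENCODE M21 annotation, whole gene bodies with exons and introns). In order they are Mmp13 (chr9:7272514-7283331), Mmp12 (chr9:7344381-7369499), Mmp3 (chr9:7445822-7455975), Mmp10 (chr9:7502352-7510240) and Mmp8 (chr9:7558456-7568485), all on the forward strand. The other members lie apart, with Mmp2 at chr8:92827291-92853420, Mmp9 at chr2:164940780-164955850, Mmp14 at chr14:54431612-54445364, Timp1 at chrX:20870166-20874735 and Timp2 at chr11:118301069-118355740 on the reverse strand.

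The genes of this span differed in their holders, with Mmp3 at its highest measured level in fibroblasts, Mmp12 in myeloid cells and, in the MSA-2 library, Mmp8 in neutrophils. Mmp10 shared the fibroblasts with Mmp3. The bases upstream of each are shown for comparison. The 120 bases before the RefSeq start (GRCm38.p6, forward strand, 5′ to 3′) are in lower case, with the letters TGAGTCA or their reverse complement TGACTCA, the usual AP-1 motif, in capitals. RefSeq promoters matched 8 of the 10 members, and 4 of those 8 (Mmp3, Mmp10, Mmp12 and Mmp13) had the motif within 250 bases before a start, or 4 of their 9 promoters, since Mmp12 has a pair of starts. The same letters stood in 4.46% of 32851 promoters over that length. For Mmp12 the later start, which has the motif, is shown, and the start at the beginning of the annotated gene has no match. Mmp8 is shown as the gene of the span without the motif.
Mmp13, chr9:7272394-7272513, motif at -35: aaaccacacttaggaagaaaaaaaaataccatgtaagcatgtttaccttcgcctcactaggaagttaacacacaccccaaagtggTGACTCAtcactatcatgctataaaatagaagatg
Mmp12, chr9:7347254-7347373, motif at -44: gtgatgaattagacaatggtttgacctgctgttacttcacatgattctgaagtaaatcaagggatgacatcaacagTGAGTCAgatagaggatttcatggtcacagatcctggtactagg
Mmp3, chr9:7445702-7445821, motif at -46: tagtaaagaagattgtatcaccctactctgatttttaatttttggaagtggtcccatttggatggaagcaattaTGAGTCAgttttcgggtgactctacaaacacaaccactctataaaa
Mmp10, chr9:7502222-7502341, motif at -63: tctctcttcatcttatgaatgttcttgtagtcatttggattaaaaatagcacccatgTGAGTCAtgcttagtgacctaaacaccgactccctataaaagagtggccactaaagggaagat
Mmp8, chr9:7558309-7558428, no match: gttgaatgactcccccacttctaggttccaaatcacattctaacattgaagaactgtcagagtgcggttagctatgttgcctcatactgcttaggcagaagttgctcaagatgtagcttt
Positions count the first base of the motif back from the start. A match describes letters only, and no binding was measured.

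The files held 14386 and 14617 barcodes (untreated and MSA-2), of which 53 sequences occurred in both. The methods give the same numbers of cells as immune cells that passed a quality filter. After filtering and removal of predicted doublets, 13334 and 13346 cells with 183401778 and 190514883 UMIs remained. A UMI marks 1 captured mRNA molecule, and a level in CPM is the count of a gene scaled to 1000000 UMIs summed over the genes of those cells. Clusters were formed without the 10 genes, and classes were named from marker genes. Fibroblasts numbered 200 and 672 cells, macrophages 3199 and 1075, and neutrophils 42 and 2649. The sort and the pooling of mice cannot be told apart from treatment in these shares of cells.

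The labels give the cell type as tumor cells, but most of the epithelial markers listed for them were nearly absent. In the class that stands for them, Krt8 was at 0.155 and 0.258 CPM, Krt18 at 0.00675 and 0.0123 CPM, Epcam at 0.155 and 0.0184 CPM and Cdh1 at 0.507 and 0.412 CPM. Krt7 and Krt19 were also under 1 CPM. Krt14, at 22.6 and 7.66 CPM, was above its level in fibroblasts (4.46 and 1.03 CPM) and macrophages (2.54 and 1.05 CPM), and Areg stood at 25.2 and 13.8 CPM, against 20.6 and 72.0 CPM in macrophages. The class is therefore called Hmga2-high, after its level of Hmga2 (191 and 267 CPM) and its low Ptprc, the pan-leukocyte gene. It held 6565 and 7010 cells in 9 clusters. A further cluster of 316 and 209 cells, led by Gm26917 and Lars2, had Hmga2 at 238 CPM but a median of 1404 UMIs and Ptprc at 81.6 CPM, and it was left unnamed. The neutrophil class carried S100a8 and S100a9 in both libraries, but in the untreated library it comprised only 58107 UMIs, so 3 UMIs there already make 51.6 CPM.

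The holders of the 10 genes differed. Hmga2-high cells held 93.0% and 90.1% of the Timp2 UMIs (untreated, then MSA-2, as in each pair of values), 95.2% and 79.9% of Mmp9, and 80.1% and 87.4% of Mmp14. That class held 80.7% and 85.5% of the UMIs of all genes, so its share of Mmp14 was near its share of all UMIs. Its share of Mmp9 with MSA-2, and its shares of Mmp2 and Mmp10 given below, were lower than that. Fibroblasts, which were 1.5% and 5.04% of the cells, held 88.6% and 85.2% of Mmp3. Mmp2 was 53.7% and 24.0% in Hmga2-high cells and 41.4% and 73.5% in fibroblasts, and Mmp10 67.6% and 10.8% in Hmga2-high cells and 24.3% and 87.2% in fibroblasts. Neutrophils held 69.4% of the Mmp8 UMIs of the MSA-2 library. Macrophages held 58.2% and 51.5% of Mmp12, and the unnamed myeloid clusters held 27.1% and 21.03%. Mmp13 was divided, with 44.3% and 19.5% in fibroblasts, 33.2% and 33.9% in macrophages and 8.37% and 15.4% in Hmga2-high cells.

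**Figure D1:**
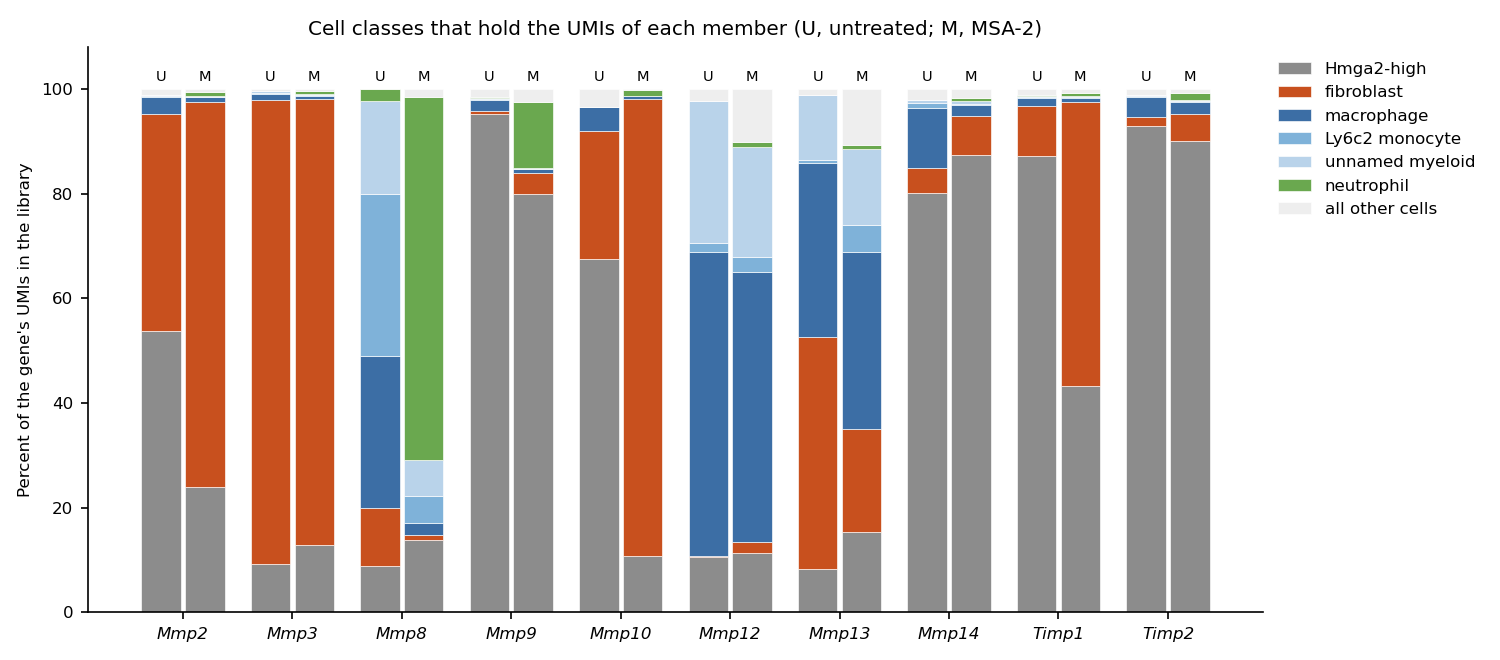
Percent of each gene's UMIs held by each class, stacked, with the untreated library (U) and the MSA-2 library (M) side by side for the 10 genes. Timp2, Mmp14 and Mmp9 sat mostly in Hmga2-high cells, Mmp3 in fibroblasts, Mmp12 in myeloid classes, and Timp1 was 87.1% Hmga2-high without MSA-2 but 54.3% fibroblast with it. Hmga2-high cells held 80.7% and 85.5% of the UMIs of all genes.

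Free RNA from broken cells adds UMIs to droplets of every class. NK and T cells, which should lack most of these genes, were used as the measure of it. In them Timp2 was at 148 and 67.4 CPM, Timp1 at 29.4 and 80.3 CPM, Mmp14 at 13.4 and 13.5 CPM, and Mmp3 at 1.68 and 6.13 CPM. Their median depth was 3286.5 and 4427.5 UMIs per cell, against 20330 and 20036 in Hmga2-high cells and 5808 and 4923 in macrophages. The same number of free UMIs makes fewer CPM in a deeper cell. The CPM of NK and T cells is thus no floor for Hmga2-high cells, and UMIs per cell are given beside it for some members. Shares of cells are compared after thinning each cell to 1000 UMIs.

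Ratios are MSA-2 over untreated. A gene was called higher or lower in a class when log2 of the ratio, with 1 CPM added to both levels, was 1 or more in size. Only genes with at least 20 UMIs in the class over both libraries were tested in this way. Printed ratios are without the added CPM, and their 95% intervals (exact, conditional binomial for ratios and Poisson for levels) cover counting error only.

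Over all cells, 4 of the 10 members were called higher (Mmp3, Mmp8, Mmp10, Timp1) and 2 lower (Mmp12, Timp2). The Mmp10 call was lost with 10 CPM added (0.44 in place of 1.66), and the Timp2 call with each cell at equal weight (-0.91 in place of -1.02). The Mmp12 call was lost under both alternatives, with -0.49 in place of -1.08 when 10 CPM were added. Among all 19497 genes tested, 2.97% were called higher and 2.95% lower. In Hmga2-high cells 2 members were called higher (Mmp3, Mmp8) and 2 lower (Mmp2, Timp2), against 2.59% and 1.66% of all genes. In fibroblasts 2 were called higher (Mmp10, Timp1) and 4 lower (Mmp2, Mmp13, Mmp14, Timp2), against 6.99% and 6.97%. In macrophages 9 members could be tested and 4 were called higher (Mmp3, Mmp8, Mmp13, Timp1) and none lower, against 5.87% and 3.62%. In neutrophils 4 of 7 tested members were called higher and none lower, against 31.2% and 32.7% of all genes. Each of those 4 (Mmp2, Mmp3, Mmp8, Mmp14) had at most 1 UMI in the untreated neutrophils, so the counts in neutrophils carry no reading for the members.

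**Figure D2:**
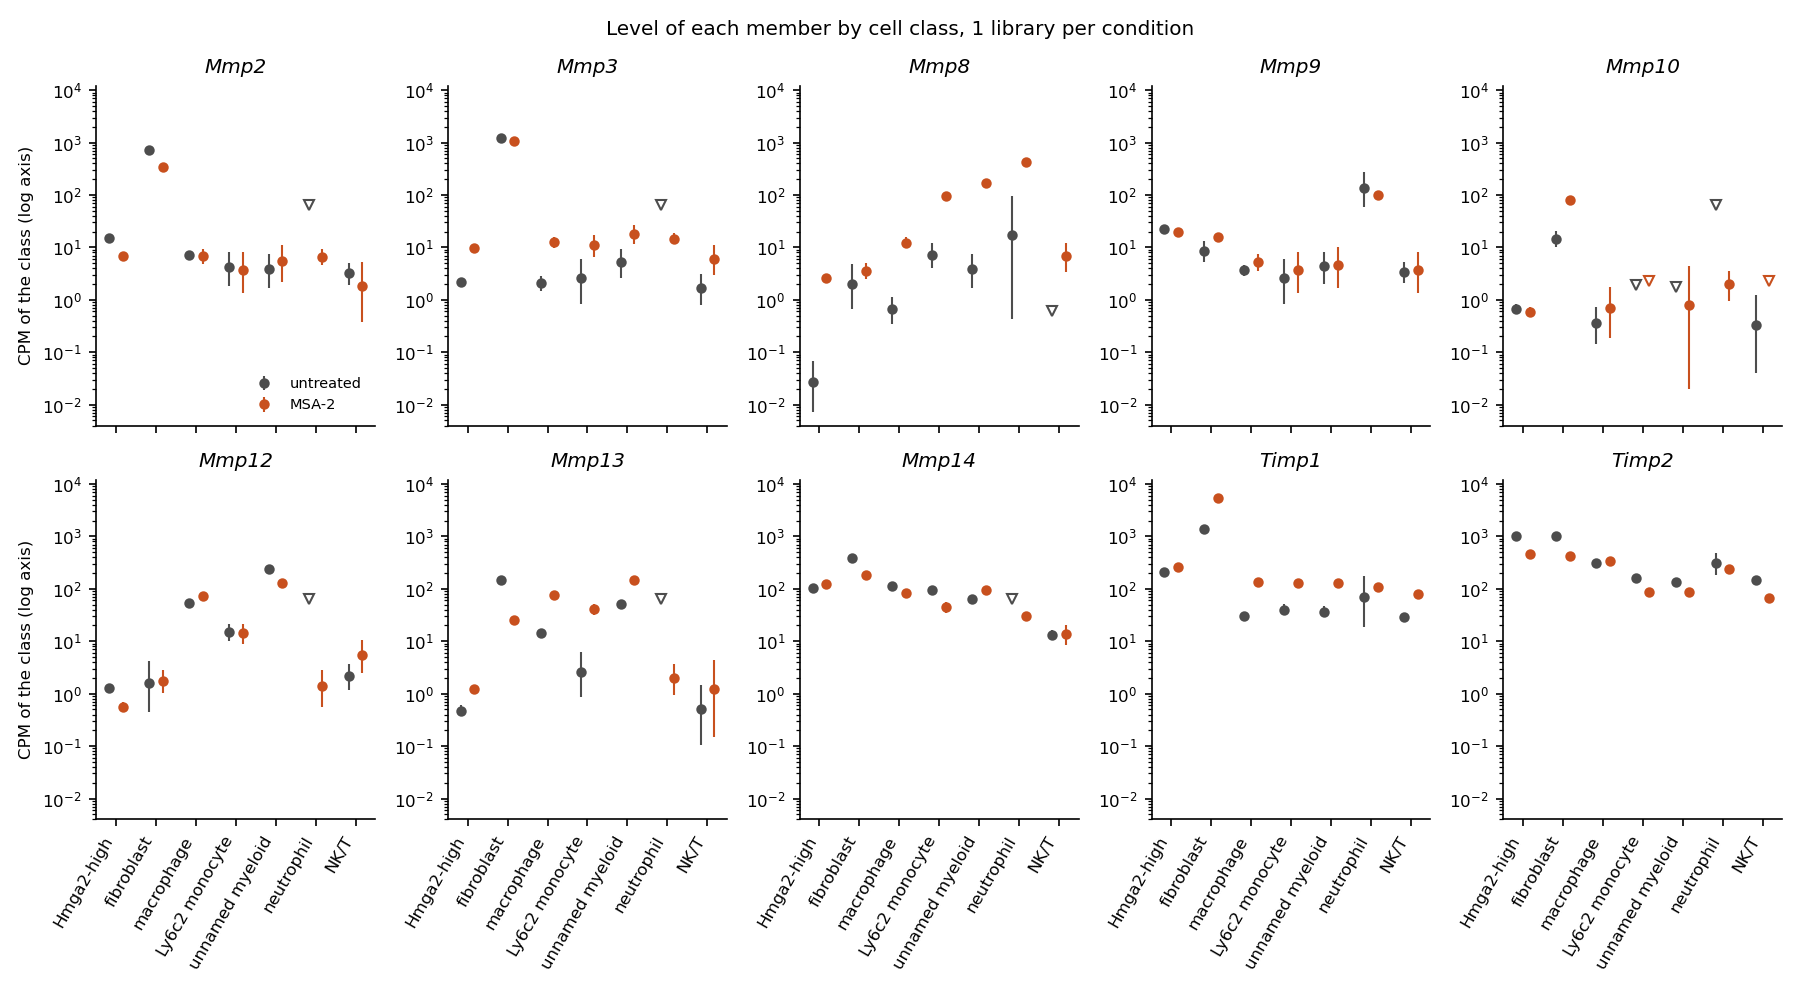
CPM on a log axis of the 10 genes, a panel each, in 7 classes of the untreated and MSA-2 libraries, with exact 95% Poisson intervals and open triangles at the upper limit where no UMI was counted. Mmp2, Mmp3, Mmp10 and Timp1 had their highest measured levels in fibroblasts in both libraries, and Mmp8 in neutrophils of the MSA-2 library.

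The stromelysins Mmp3 and Mmp10 cut proteoglycans, fibronectin and pro-collagenases. Fibroblasts held Mmp3 at 1243 CPM (1199 to 1288) without and 1078 CPM (1057 to 1098) with MSA-2, a log2 ratio of -0.21 (-0.26 to -0.15). Its level in a fibroblast was thus near the same, while over all cells it went from 18.9 to 64.6 CPM, a log2 ratio of 1.78 (1.72 to 1.83). Mmp3 was also called higher in Hmga2-high cells (2.17 to 9.76 CPM) and in macrophages (2.08 to 12.4 CPM). In CPM those levels were close to the NK and T cells of the same library, whose intervals were 0.805 to 3.09 CPM and 2.94 to 11.3 CPM, and only the MSA-2 macrophages stood above them (9.69 to 15.7 CPM, with overlap). In UMIs per cell, Hmga2-high cells held 7.46 and 6.80 times as many Mmp3 UMIs as NK and T cells, and macrophages 1.96 and 1.98 times. The summed level of the 10 fibroblast markers was 317 and 707 CPM in macrophages and 2074 and 2593 CPM in Hmga2-high cells. Of these markers, Hmga2-high cells held Col3a1 at 1257 and 767 CPM and Dcn at 452 and 1483 CPM. The sum is thus not particular to fibroblasts, and its part in these Mmp3 calls was not tested. With the NK and T cell UMIs per cell taken off, the log2 ratio in Hmga2-high cells, with 1 CPM added, was 1.70 in place of 1.76, and with 10 CPM added the calls were lost there (0.70) and in macrophages (0.89 in place of 2.12).

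Mmp10 was called higher in fibroblasts, from 14.6 CPM (10.2 to 20.2) to 80.2 CPM (74.7 to 86.0), a log2 ratio of 2.46 (1.98 to 2.98). A handful of cells carried it. In the untreated library its 36 UMIs came from 6 fibroblasts, with 26 in 1 cell, and in the MSA-2 library its 780 UMIs came from 34 of 672 fibroblasts, of which the highest 4 held 57.8%. Without the 3 highest cells of each library the log2 ratio, with 1 CPM added, was 4.31 in place of 2.38. In Hmga2-high cells Mmp10 was at 0.675 and 0.596 CPM and was not called.

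The collagenases cut fibrillar collagen. Mmp13 was called in opposite directions in 2 classes. In macrophages it was at 14.1 CPM (12.5 to 15.9) without MSA-2 and 76.4 CPM (69.4 to 83.9) with it, 5.42 times as high, with a log2 ratio of 2.44 (2.22 to 2.66). In fibroblasts it was at 150 CPM (135 to 166) and 25.8 CPM (22.7 to 29.2), a log2 ratio of -2.54 (-2.78 to -2.30). The difference between these ratios could not be tested with 1 library per condition. Markers of other classes moved as well. Fibroblast and neutrophil markers were higher with MSA-2 in macrophages, while in fibroblasts macrophage markers were lower and neutrophil markers higher. Ly6c2 monocyte markers were higher in both classes, from 725 to 2075 CPM in macrophages and from 1133 to 4092 CPM in fibroblasts. B and plasma cell markers of the fibroblasts went from 1735 to 5.96 CPM. Their part in the Mmp13 calls was not tested.

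The macrophage UMIs were spread over more cells than those of the fibroblasts, though the highest 10% of macrophages still held 100% and 88.6% of them. Of the untreated macrophages 4.06% had a Mmp13 UMI, against 14.7% of those given MSA-2, or 1.31% (0.949 to 1.77) and 5.51% (4.22 to 7.05) after thinning. NK and T cells were at 0.503 and 1.23 CPM. The Ly6c2 monocytes were higher in the MSA-2 library as well (2.61 and 40.5 CPM). The unnamed myeloid clusters together stood at 50.3 and 145 CPM, but they were made up differently, with 79 of 356 and 273 of 312 cells in the cluster led by Cxcl3 and Slpi, where Mmp13 was lower with MSA-2. The fibroblast values rested on few cells: 370 UMIs in 20 of 200 cells and 251 UMIs in 23 of 672 cells, with the highest 3 cells holding 55.4% and 53.4%. Leaving those 3 cells out of each library gave a log2 ratio, with 1 CPM added, of -2.40 in place of -2.49.

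**Figure D3:**
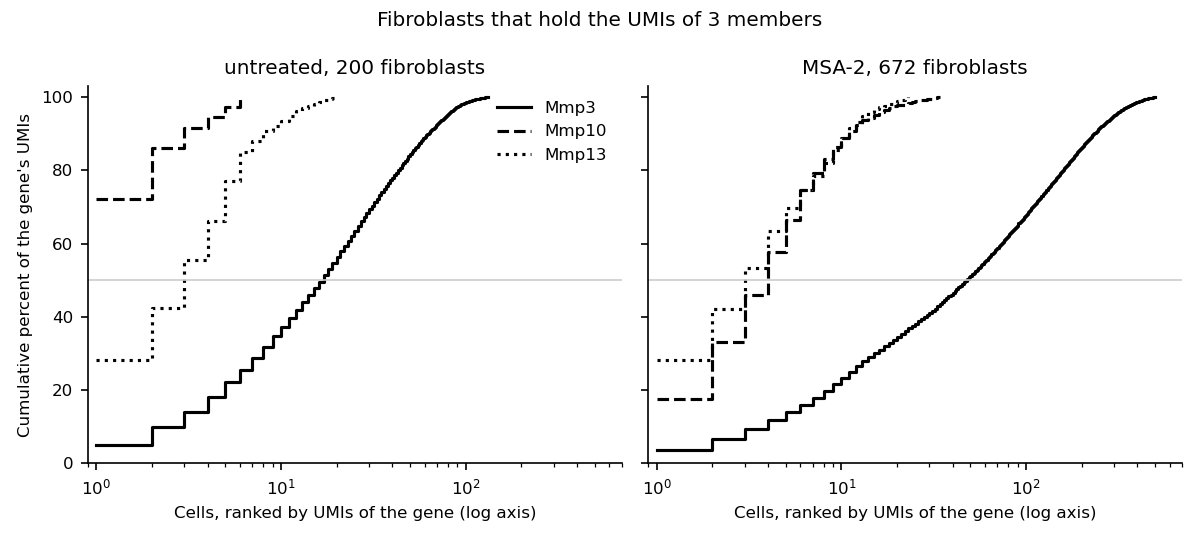
Cumulative percent of the Mmp3, Mmp10 and Mmp13 UMIs of fibroblasts against the rank of the cell, from the cell with the most UMIs, in the untreated and MSA-2 libraries. The 3 highest cells held 55.4% and 53.4% of Mmp13, whereas the highest 10% of cells held 56.3% and 57.8% of Mmp3.

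Mmp10 and Mmp13 were found together in some fibroblasts, though most cells with either gene lacked the other. In the MSA-2 library 10 of the 23 cells with Mmp13, 43.5%, also had Mmp10, which was found in 3.70% of the remaining fibroblasts. Mmp3 was found in 91.3% of the cells with Mmp13 and in 74.0% of the rest. These are counts of cells of 1 pooled library and carry no test, and cells of higher depth have more UMIs of every gene.

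Mmp8, the neutrophil collagenase, is stored in neutrophil granules and was the member with the greatest ratio over all cells. It had 45 UMIs in the whole untreated library, 0.245 CPM, and 3108 in the MSA-2 library, 16.3 CPM, a log2 ratio of 6.06 (5.63 to 6.51). In neutrophils of the MSA-2 library it was at 424 CPM (406 to 442), and 33.9% of those cells had a UMI. The 42 untreated neutrophils had 1 UMI of Mmp8, 17.2 CPM (0.436 to 95.9), a log2 ratio of 4.62 whose counting interval ran from 2.14 to 9.93. Ly6c2 monocytes went from 7.32 to 96.4 CPM and the unnamed Cxcl3 and Slpi cells from 18.9 to 180 CPM, both above the NK and T cells (6.74 CPM, 3.37 to 12.1) of the MSA-2 library. Mmp8 was called higher in Hmga2-high cells (0.0270 to 2.62 CPM) and macrophages (0.66 to 12.2 CPM), but the first lay below that NK and T cell interval and the second, at 9.54 to 15.5 CPM, overlapped it. In UMIs per cell of the MSA-2 library they held 1.66 and 1.78 times as many as the NK and T cells, which had none in the untreated library. The Hmga2-high call was lost with the NK and T cell UMIs taken off (0.99 in place of 1.82, with 1 CPM added) and with 10 CPM added (0.33). The summed level of the 10 neutrophil markers moved with it, from 7.11 to 488 CPM in Hmga2-high cells, from 119 to 994 CPM in macrophages, from 284 to 2802 CPM in Ly6c2 monocytes and from 614 to 3378 CPM in the unnamed myeloid clusters, and their part in the Mmp8 differences was not tested.

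The gelatinases cut denatured collagen and basement membrane collagen. Mmp2 was called lower in both of its main holders. In fibroblasts it was at 714 CPM (681 to 749) and 346 CPM (334 to 358), a log2 ratio of -1.05 (-1.13 to -0.96), and in Hmga2-high cells at 15.4 CPM (14.8 to 16.1) and 6.74 CPM (6.34 to 7.15), a log2 ratio of -1.20 (-1.30 to -1.09). Over all cells it was nearly level, at 23.2 and 24.0 CPM, with more fibroblasts in the MSA-2 library. The fibroblast call lay close to the threshold and was lost under TMM scaling (-0.83 with 1 CPM added, in place of -1.05) and with each cell at equal weight (-0.98). The Hmga2-high call was lost with 10 CPM added (-0.60) and with the 9 clusters held at their untreated cell shares, where the log2 ratio with 1 CPM added was -0.87 in place of -1.09.

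Mmp9, the other gelatinase, was held mainly by Hmga2-high cells, at 22.8 CPM (22.0 to 23.5) and 19.5 CPM (18.9 to 20.2), and it was not called there. Its highest levels among their clusters were in the one led by Pcdh9 (63.2 and 47.9 CPM) and the one led by Csmd3 and Aspn (42.0 and 40.5 CPM). Neutrophils of the MSA-2 library held it at 98.8 CPM (90.4 to 107.8), and the 42 untreated neutrophils at 138 CPM from 8 UMIs (59.4 to 271). Those intervals overlap, so no difference was detectable at this depth, and with 1 CPM added the ratio turned from -0.47 to 0.59 under TMM scaling, 0.55 at resolution 2, 0.06 without the 3 highest cells and 6.90 under the stricter cell filter (1000 genes or more, mitochondrial share of 10% or less). Macrophages, at 3.70 and 5.24 CPM, were near the NK and T cells (3.36 and 3.68 CPM).

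Mmp12, the macrophage elastase, was at 53.7 CPM (50.5 to 57.1) and 71.5 CPM (64.7 to 78.8) in macrophages, a log2 ratio of 0.41 (0.24 to 0.58), and was not called. This class value depended on the clustering: with 1 CPM added the ratio was 0.41, against -0.07 without integration of the libraries and 1.42, past the threshold, when the myeloid clusters were not clustered again. Over all cells it was called lower, from 9.93 to 4.17 CPM, a call that was lost with each cell at equal weight (-0.84) and with 10 CPM added (-0.49). The share of macrophages went from 24.0% to 8.05% of the cells. Within the class the Gpnmb and Fabp5 sub-cluster held it at 154 and 171 CPM, with a 95% interval of the log2 ratio from -0.08 to 0.36. The Cbr2, Folr2 and Lyve1 sub-cluster went from 158 to 24.4 CPM, and the one led by the heat-shock gene Hspa1a from 12.4 to 51.2 CPM. The sub-cluster led by Atp2b4 and Nrg1, with Il1b among its leading genes, was level at 59.2 and 58.2 CPM. The Clec4b1 sub-cluster went from 6.96 to 23.3 CPM and the cycling one from 14.0 to 87.2 CPM. The highest level of any sub-cluster in the untreated library was in unnamed myeloid cells led by Cxcl3 and Slpi, at 685 CPM (603 to 774) in 79 untreated cells. With MSA-2 these cells stood at 142 CPM (122 to 166), below the Gpnmb and Fabp5 sub-cluster. By their intervals 3 of the 6 macrophage sub-clusters were thus higher with MSA-2, 1 was lower and the remaining intervals included 0. Few cells carried Mmp12, so single cells weigh on these values. Its 1059 and 409 macrophage UMIs came from 222 of 3199 and 79 of 1075 cells, with up to 44 and 26 in 1 cell. The cycling level with MSA-2 rested on 20 UMIs in 29 cells.

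**Figure D4:**
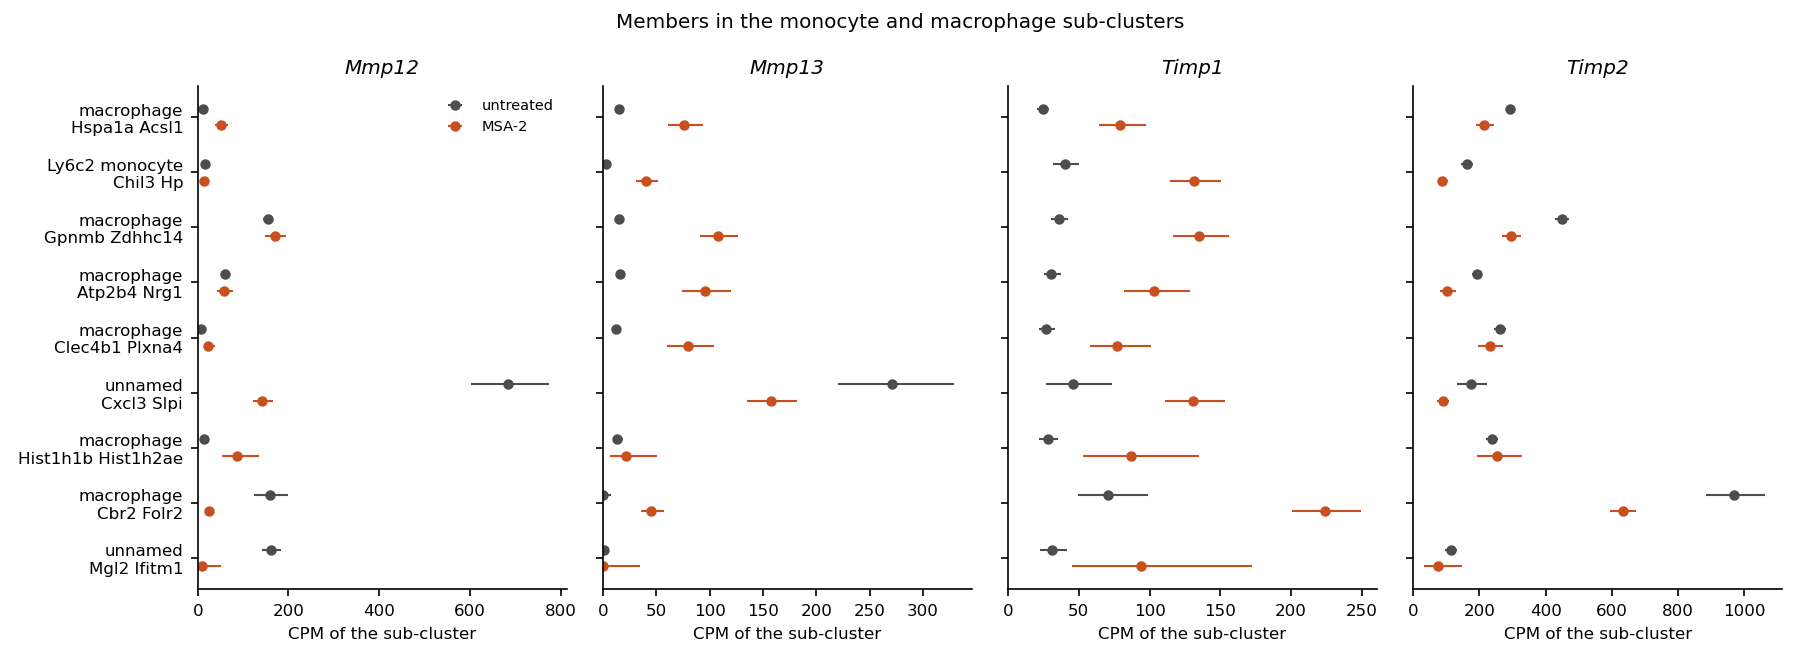
CPM of Mmp12, Mmp13, Timp1 and Timp2 in the 9 myeloid sub-clusters with at least 20 cells in both libraries, untreated beside MSA-2, with exact 95% Poisson intervals. By level, Timp1 was higher with MSA-2 in each sub-cluster shown and Timp2 was lower in each but the cycling one led by Hist1h1b. The interval of the Timp2 log2 ratio included 0 in the cycling sub-cluster and in those led by Clec4b1 and Mgl2. Mmp12 went both ways.

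The Mmp13 difference of the macrophages was seen across their sub-clusters. It went from 15.3 to 76.0 CPM in the Hspa1a sub-cluster, from 14.9 CPM (11.5 to 19.1) to a level between 91.3 and 127 CPM in the Gpnmb and Fabp5 sub-cluster, from 15.9 to 95.3 CPM in the Atp2b4 and Nrg1 sub-cluster and from 11.8 to 80.0 CPM in the one led by Clec4b1. In the Cbr2 and Folr2 sub-cluster no UMI was found in 78 untreated cells (up to 7.69 CPM) and 69 UMIs in 231 MSA-2 cells made 45.5 CPM. The cycling sub-cluster, with 29 MSA-2 cells, was at 13.2 and 21.8 CPM with an interval of the log2 ratio from -0.99 to 2.08. The unnamed Cxcl3 and Slpi cells went the other way, from 271 CPM (220 to 329) to 157 CPM (135 to 182).

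Mmp14, the membrane-type enzyme that activates pro-Mmp2 and cuts collagen at the cell surface, was at 106 CPM (104 to 107) and 126 CPM (124 to 128) in Hmga2-high cells, with 76.3% and 82.5% of cells holding a UMI. Its log2 ratio there was 0.25 (0.22 to 0.28), and it was 0.03 with 1 CPM added when the clusters were held at their untreated cell shares. The Pcdh9 cluster held the highest level, 218 and 234 CPM, and numbered 109 and 1243 cells. In fibroblasts Mmp14 was called lower, from 383 CPM (359 to 408) to 180 CPM (172 to 189), a log2 ratio of -1.09 (-1.21 to -0.97), a call that was lost under TMM scaling (-0.87 with 1 CPM added). Macrophages held it at 114 and 83.4 CPM, above the NK and T cells, and were not called.

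The inhibitors were called in opposite directions in fibroblasts and over all cells. Timp2 was called lower in Hmga2-high cells, from 1006 CPM (1001 to 1011) to 452 CPM (449 to 456), a log2 ratio of -1.15 (-1.17 to -1.14). Each of the 9 Hmga2-high clusters showed it, with log2 ratios from -1.44 in the cluster led by Ero1l and Ankrd37 to -0.81 in the mitotic cluster led by Cenpf. Fibroblasts were called lower too, from 1039 CPM (999 to 1080) to 423 CPM (410 to 436). The macrophage class was not called, at 313 and 334 CPM. Of its 6 sub-clusters 4 were lower with MSA-2 by intervals below 0, with log2 ratios from -0.90 in the Atp2b4 and Nrg1 sub-cluster to -0.44 in the Hspa1a one. The intervals of the other two included 0, at -0.17 for Clec4b1 and 0.09 for the cycling cells. The Cbr2 and Folr2 sub-cluster had the highest Timp2, 969 and 632 CPM, and numbered 78 and 231 cells. NK and T cells were themselves at 148 and 67.4 CPM, a log2 ratio of -1.14 (-1.43 to -0.85), beside 192 and 103.2 CPM in the Atp2b4 and Nrg1 sub-cluster. At the untreated cell shares of the sub-clusters the MSA-2 macrophages would stand at 240 CPM.

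Timp1, an inhibitor induced by many cytokines, was called higher over all cells, from 195 to 508 CPM, a log2 ratio of 1.38 (1.37 to 1.40). Hmga2-high cells held most of its untreated UMIs and fibroblasts most of those with MSA-2 (87.1% and 54.3%). Fibroblasts went from 1380 CPM (1334 to 1427) to 5407 CPM (5361 to 5454), 3.92 times as high, with a log2 ratio of 1.97 (1.92 to 2.02). After thinning 64.0% and 85.4% of fibroblasts had a UMI. In Hmga2-high cells it was at 210.3 and 257 CPM, and it was not called there. Its log2 ratio in the 9 clusters ran from -0.01 in the mitotic Cenpf cluster to 1.46 in the Pcdh9 cluster, and it was 0.49 or more in 4 and from -0.01 to 0.39 in the other five. Macrophages were called higher, from 30.04 CPM (27.7 to 32.6) to 134 CPM (125 to 144). The NK and T cells stood at 29.4 CPM (25.2 to 34.1) and 80.3 CPM (67.2 to 95.3), so in CPM the untreated macrophages were within their interval and the MSA-2 macrophages above it. In UMIs per cell, macrophages held 1.61 times as much Timp1 as NK and T cells without MSA-2 and 1.64 times with it. The fibroblast markers of macrophages were higher with MSA-2 as well, and their part in the Timp1 call was not tested. Among the 4 members called higher in macrophages, Mmp3, Mmp8 and Timp1 stood at 1.98, 1.78 and 1.64 times the NK and T cells in UMIs per cell of the MSA-2 library. Mmp13 had too few UMIs in those cells for such a ratio, with 2 UMIs in 300 cells (up to 4.43 CPM).

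**Figure D5:**
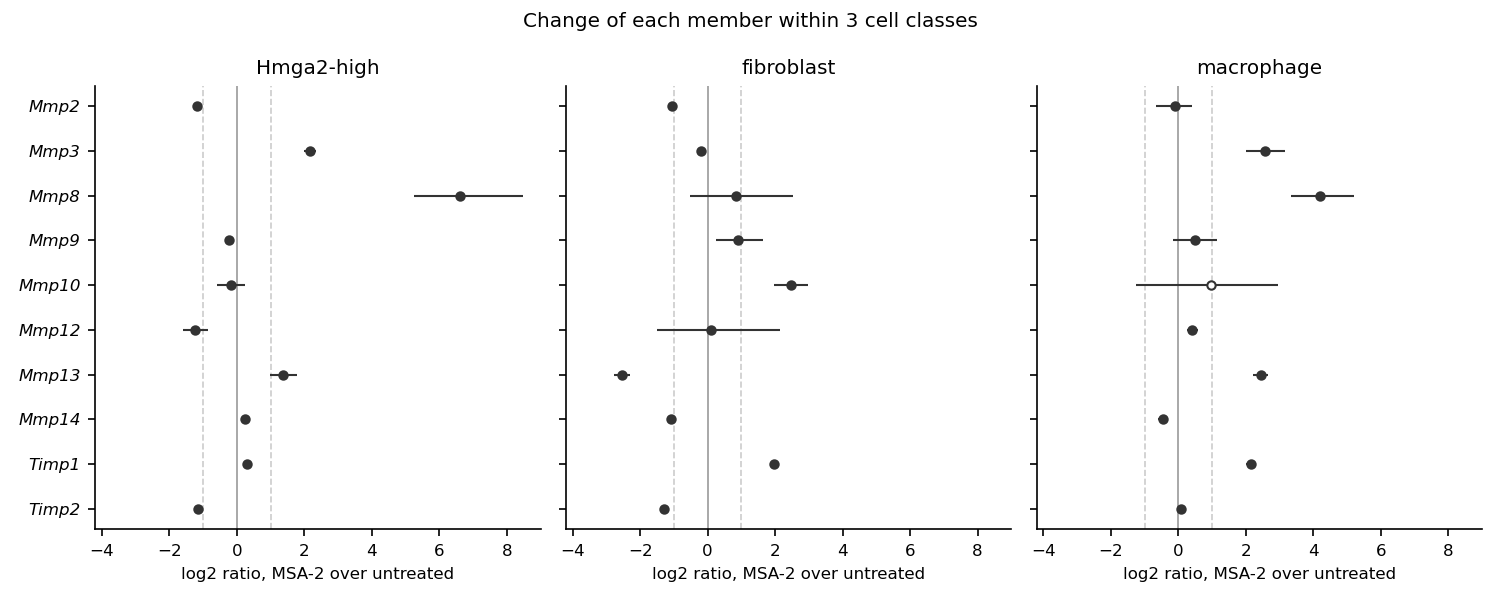
Log2 ratio of MSA-2 over untreated CPM for the 10 genes in Hmga2-high cells, fibroblasts and macrophages, with exact 95% intervals for counting error and dashed lines at a size of 1 and an open point where the gene had too few UMIs to be tested. Mmp13 was at -2.54 in fibroblasts and 2.44 in macrophages, and Mmp12 and Mmp13 lie past a line in Hmga2-high cells without being called, since the call adds 1 CPM to both levels.

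Set against each other, the TIMP UMIs per MMP UMI of the members went from 8.19 (8.07 to 8.30) to 4.24 (4.19 to 4.30) in Hmga2-high cells and from 0.961 (0.927 to 0.996) to 3.37 (3.31 to 3.43) in fibroblasts. Macrophages were at 1.75 (1.68 to 1.82) and 1.74 (1.64 to 1.86). Neutrophils were at 2.44 (1.08 to 6.03), from 9 MMP and 22 TIMP UMIs, and 0.604 (0.569 to 0.641). NK and T cells, the measure of free RNA, also fell, from 7.2 (6.05 to 8.61) to 3.8 (2.89 to 5.13). The part of free RNA in these ratios was not tested. The ratio counts mRNA molecules of different genes with unknown capture rates, so only its difference between libraries can be read, and it says nothing of protein or enzyme activity.

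Since the classes differed in size between the libraries, the difference in UMIs per cell over all cells was split by exchanging either the shares of cells or the levels per cell. For Mmp3 the total log2 difference of 1.83 was 1.62 with the MSA-2 cell shares and untreated levels, and 0.52 with the MSA-2 levels and untreated cell shares. Mmp12 was split in the same way, with -1.20 in total, -0.78 from cell shares and -0.16 from levels. Timp2 was the reverse, with -0.97 in total, 0.11 from cell shares and -1.05 from levels. For Mmp2 the parts opposed each other, at 0.99 and -0.95. For Timp1, with 1.44 in total, the cell shares alone gave 0.35 and the levels alone 0.72, and the remainder arose only when both were exchanged.

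Of 15 other members of the metalloproteinase family, 14 were in the files and 10 could be tested over all cells. Of these, 1 was called higher (Mmp23, 3.46 to 9.27 CPM) and none lower. In fibroblasts 1 of 5 tested was called lower, the stromelysin-like Mmp11 (34.9 to 8.95 CPM), and Mmp23 had the highest level there at 215 and 147 CPM. In macrophages none of 5 tested was called, and Mmp19 had the highest level at 23.4 and 37.4 CPM. In Hmga2-high cells none of 10 tested was called, and Mmp16, a membrane-type enzyme, had the highest level at 19.6 and 17.8 CPM. Among the other inhibitors (Timp3, Timp4, Reck, A2m) 1 of 3 tested in fibroblasts was called lower, the matrix-bound Timp3, from 774 CPM to 120 CPM with a log2 ratio of -2.69 (-2.80 to -2.58). Timp1 and Timp3 of the fibroblasts therefore went opposite ways.

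Plasmin and other serine proteases activate several pro-MMPs. Of 12 listed genes of pro-MMP activation and the plasmin system, Serpinb2, the urokinase inhibitor PAI-2, was called higher in each of the compared classes in which it was tested, with 29.2 to 1187 CPM in fibroblasts, 0.0878 to 10.2 CPM in Hmga2-high cells and 1.01 to 26.7 CPM in macrophages. Fibroblasts held 11545 of its 14667 UMIs in the MSA-2 library, and the neutrophils there stood at 153 CPM. The neutrophil markers of Hmga2-high cells and macrophages and the fibroblast markers of macrophages were higher with MSA-2 as well, and their part was not tested. It was the only called gene of 7 tested in fibroblasts and of 9 tested in Hmga2-high cells. In macrophages 2 of 9 tested were called higher (Serpinb2, and Prtn3 from 1.62 to 4.54 CPM) and none lower. Plat (3.55 and 8.04 CPM) and the proprotein convertase Furin (146 and 279 CPM) were just under the threshold there, at 0.99 and 0.93 with 1 CPM added.

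Of 15 matrix substrates, all tested, 4 were called lower in fibroblasts and none higher, with a median log2 ratio of -0.57 against -0.14 for all genes tested there. They were Col1a1 (15740 to 7576 CPM), Col5a1 (857 to 393 CPM), Fn1 (2154 to 854 CPM) and Eln (665 to 136 CPM), which encode fibrillar collagen chains, fibronectin and elastin. In Hmga2-high cells Dcn (452 to 1483 CPM) and Col1a2 (19.1 to 43.2 CPM) were called higher and Fn1 (958 to 348 CPM) lower. In macrophages 5 were called higher and none lower, namely Col1a1, Col1a2, Vcan, Dcn and the secreted matrix protein Spp1 (249 to 807 CPM). Of these, Col1a1, Col1a2 and Dcn are themselves on the fibroblast marker list, whose sum in macrophages was 317 and 707 CPM, so it does not stand apart from these calls, and its part in the others was not tested.

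Of 14 genes for inducers and AP-1 subunits, all tested, 4 were called higher in fibroblasts (Il1a, Il1b, Tnf, Il6) and 1 lower (Fosb). Il6 was at 199 and 851 CPM and Tnf at 8.52 and 89.8 CPM there. The neutrophil markers summed to 35.7 and 835 CPM in the fibroblasts and the macrophage markers to 907 and 305 CPM, and their part in these calls was not tested. In macrophages 5 were called higher (Il6, Tnf, Il1a, Lif, Fosl1) and 4 lower (Il1b, Osm, Fosb, Junb), with Il6 from 3.86 to 129 CPM and Il1b from 2348 to 673 CPM. The fibroblast and neutrophil markers were higher with MSA-2 in macrophages as well, and their part in these calls was not tested. In Hmga2-high cells 4 were called higher (Il1a, Tnf, Il6, Lif) and 1 lower (Fosb). Il1a (0.918 and 7.88 CPM) and Tnf (6.08 and 16.4 CPM) were low there beside the neutrophils of the MSA-2 library (963 and 261 CPM), and the part of the neutrophil markers in these calls was not tested. Among the AP-1 subunits Fosb was called lower in each of these 3 classes, and the only one called higher was Fosl1 in macrophages, with a log2 ratio of 1.01 after adding 1 CPM.

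As a description, each member's levels over 17 profiles were compared with those of 6989 other genes by Pearson's r of log2(CPM + 1). The profiles were named classes by library with at least 20 cells, so the unnamed myeloid clusters were left out. The profiles share libraries and free RNA. The most alike were Il11ra1 for Mmp2 (0.95), Efemp1 for Mmp3 (0.97), Tarm1 for Mmp8 (0.94), Ero1l for Mmp9 (0.88) and Saa1 for Mmp10 (0.97). They were Man2a1 for Mmp13 (0.88), Wwc2 for Mmp14 (0.97), Prelp for Timp1 (0.92) and Serpinf1 for Timp2 (0.84). Efemp1 was also the second most alike of Mmp10 (0.94).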

How the data were processed

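Single-cell 3′ libraries (10x Chromium, v3.1 chemistry) were made from 2 pools of MC38 tumors. The authors deposited UMI counts per gene and barcode, made with Cell Ranger on mm10 (7.0.0 in the submitters' processing notes, 7.0.1 in the file headers); the counts are not normalized. Total counts of the used cells were 183401778 and 190514883 per library. Filtering kept barcodes with 500 genes or more and mitochondrial UMIs of no more than 20%. Doublets predicted by Scrublet (scanpy 1.11.5) were then left out (705 and 617 cells). Clusters came from Seurat 5.3.0 after RPCA integration on 2000 variable genes, without the members and the pathway lists, with 30 dimensions at resolution 1. Macrophage, monocyte, dendritic and mast clusters were clustered again.

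Clusters were named from listed markers. The score thresholds, and the Hmga2-high rule (Hmga2 of at least 55 CPM, Ptprc of at most 40 CPM in an unnamed cluster), were set after the clusters were seen. Clusters led by markers of another class stayed unnamed. UMIs were summed per class and library and scaled to CPM. With 1 library per condition no test was run, a call needs a log2 ratio of 1 in size after adding 1 CPM, and intervals cover counting error only. The ratio step was tested on simulated data. Named genes were the 10 members, list genes that were called or led their list in a class, and for each member the most alike gene, except a few that are not reported here. The members and lists were chosen with earlier results of these data known. Coordinates come from GENCODE M21 and promoters from RefSeq GRCm38.p6, the build of mm10. Alternatives covered filters, doublets, resolution, random seeds, integration, depth, scaling with edgeR 4.0.16, the added CPM, the minimum UMIs and the threshold.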

Additional observations from a re-analysis of the deposited data

Results flagged for a closer look

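The log2 ratio of Mmp13 between MSA-2 and untreated, with 1 CPM added to both levels, was 2.36 in macrophages and -2.49 in fibroblasts. It was picked out because the same contrast gave opposite directions in 2 classes of cells. The difference between the classes was not tested, since each condition had 1 library. Markers of other classes moved with MSA-2 in macrophages and in fibroblasts, and their part in these ratios was not tested either. In macrophages 437 UMIs were counted in 14.7% of the cells of the MSA-2 library, whereas in fibroblasts the values rested on 20 untreated and 23 MSA-2 cells.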

How the results depend on the processing

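No paired analysis was possible because each condition had 1 library, and for the same reason no replicate could be left out. Of 21 alternatives, 14 were listed at the start and 7 were chosen after seeing the data (leaving out the 3 cells of each library with the most UMIs of a member, counting the low-depth Hmga2 cluster with the Hmga2-high cells, leaving out shared barcodes, holding clusters at their untreated cell shares, a pair of other random seeds, and not clustering the myeloid cells again). No called log2 ratio changed sign under those run. Of 204 counts of called members, 193 stayed within 1.5 times. Of the values without a call, 157 of 960 shares of UMIs, 35 of 240 split values and 17 of 96 TIMP-per-MMP values moved past their counting interval (or, for the split, a margin taken from it), as did 90 of 876 log2 ratios. With 10 CPM added in place of 1, the count over all cells was 1 lower in place of 2 and in Hmga2-high cells 0 higher in place of 2 and 1 lower in place of 2. With each cell at equal weight 0 members in place of 2 (Mmp12 and Timp2) were called lower over all cells and 6 in place of 4 higher, with Mmp9 (1.02) and Mmp13 (1.20) added. With the UMIs per cell of NK and T cells taken off, 1 in place of 2 was called higher in Hmga2-high cells, and with clusters at their untreated cell shares 1 in place of 2 was called lower there. In fibroblasts 4 in place of 2 were called higher at a threshold of 0.58 and also without the 3 highest cells, and 2 in place of 4 lower with edgeR's TMM factors. In neutrophils 7 in place of 4 were called higher with no minimum of UMIs, and 1 in place of 0 lower at resolution 2. The cause of each was not tested, beyond what the alternative itself changes.

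With 1 CPM added, log2 ratios in fibroblasts ranged from -2.52 to -2.15 for Mmp13, from 1.87 to 4.31 for Mmp10, from 1.74 to 2.19 for Timp1 and from -1.32 to -1.08 for Timp2. In macrophages they ranged from 1.84 to 2.48 for Mmp13 and from 1.53 to 2.25 for Timp1, and Timp2 in Hmga2-high cells from -1.22 to -1.02, all past the threshold under each alternative run. Timp2 in macrophages ranged from -0.58 to 0.27, and Mmp12 there from -0.07 to 1.42, called only when the myeloid cells were not clustered again. Mmp3 lost its call in macrophages with 10 CPM added (0.89). The edges of the macrophage class moved with the clustering: it held 3199 and 1075 cells, against 3304 and 1083 or 2737 and 979 with other seeds, and 2335 and 789 when the myeloid cells were not clustered again. Depth limits the neutrophil comparison, since the untreated class had 58107 UMIs.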
